A study of Mus musculus with 10 samples.

Results

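The insulin-like growth factor (IGF) genes described here are the binding proteins Igfbp2, Igfbp3, Igfbp4, Igfbp5, Igfbp6 and Igfbp7, the receptors Igf1r and Igf2r, and the ligands Igf1 and Igf2. They were taken by symbol from a table of 18407 genes, and all 10 were found there. The set was chosen by name with the laminin against collagen expression values of these data known, among which Igfbp5 stood out, so every laminin against collagen value of the 10 genes is a description and is not offered as a test. The cells were NMC, a line of normal mouse cholangiocytes, the epithelium that lines bile ducts, grown for 6 days as 3D double spheroids. The laminin-rich group (5 libraries) was embedded in laminin and collagen I mixed at 3:1, and the collagen group (5 libraries) in collagen I alone at 1 mg/mL. Both groups came from the same line, received no other treatment and were read as poly(A) RNA. Collagen I was present in both gels.

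IGF1 and IGF2 are secreted growth factors that signal through IGF1R, a tyrosine kinase receptor that feeds the PI3K and Akt pathway. IGF2R, the cation-independent mannose 6-phosphate receptor, carries IGF2 and newly made lysosomal enzymes to lysosomes. The IGF binding proteins hold the ligands outside the cell and either keep them from the receptor or deliver them to it. IGFBP5 also binds extracellular matrix, and IGFBP7 binds IGFs weakly. In the liver, hepatocytes are the main source of circulating IGF1.

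Library totals ran from 4424725 to 7468219 counts in laminin and from 4913441 to 8129979 in collagen. Cholangiocyte markers were present, with 13 of 15 at a mean of at least 1 CPM (counts scaled to library size), led by the keratins Krt8, Krt19 and Krt18, while Sctr, the secretin receptor, had 0 counts. Others were low, with Krt7 at 1.35 to 4.79 CPM in laminin and 1.55 to 12.6 CPM in collagen. Cftr was at 0.921 to 2.69 and 0.481 to 1.43 CPM. Of 12 hepatocyte markers, 4 had a mean of at least 1 CPM. They were led by Hnf4a, at 62.0 to 132 CPM in laminin and 62.6 to 101 CPM in collagen. The library codes carry a letter whose meaning is not stated, E (3 libraries) and F (2) in laminin, D (2) and B (3) in collagen, and each letter occurs in 1 matrix only, so letter and matrix cannot be told apart. Libraries also differed in how expression followed transcript length. The slope of log2 expression per doubling of length ran from -0.12 to 0.16 in laminin and from -0.37 to 0.18 in collagen, with both letter D libraries lowest.

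Igfbp5 was the member that stood apart between the matrices. It was at 38.0, 66.6, 132, 83.4 and 47.9 CPM in laminin replicates 1 to 5, against 19.0, 18.5, 20.5, 18.3 and 13.9 CPM in collagen replicates 1 to 5. Every laminin library lay above every collagen library, and laminin replicate 3 was the highest. The laminin mean was 73.6 ± 37.2 CPM and the collagen mean 18.1 ± 2.46 CPM (SD, n = 5 each), a fitted ratio of 4.07 and a log2 difference of 2.03 (SE 0.29). Behind the levels stood 208 to 829 counts per laminin library and 87 to 169 per collagen library. Of the 7 members that passed the filter on low counts, 1 was called in edgeR's quasi-likelihood fit (threshold 0.05 on the adjusted p) and had groups that did not overlap, and nothing is read from either. Over all genes 0.148% were called, 0.139% higher and 0.00927% lower in laminin. Groups did not overlap for 3.24% of genes, 1.94% higher and 1.31% lower. Igfbp5 lost its call when collagen replicate 2, 3 or 5 was left out (log2 difference 2.02, 2.08 and 1.95), or laminin replicate 2 (2.05), or the libraries of letter D (1.93), E (1.84) or F (2.11). Without laminin replicate 3 the difference was 1.68. After an offset for transcript length and GC content it was 1.86 (SE 0.26).

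**Figure D1:**
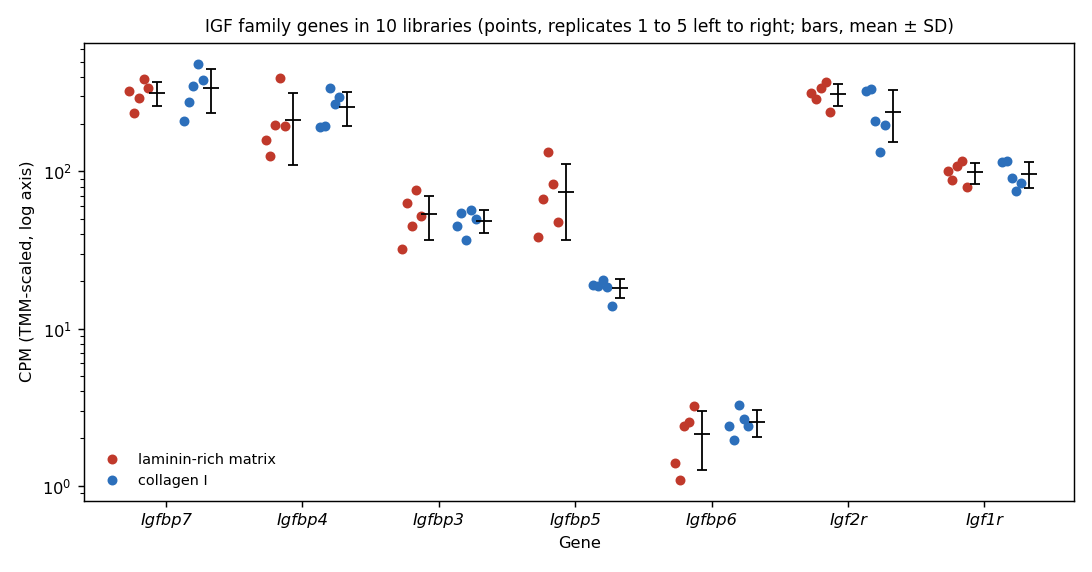
CPM of the 7 measurable IGF genes in each library on a log axis, laminin-rich matrix left of collagen I, with the mean ± SD (n = 5 each) beside the points. Igfbp5 lies at 38.0 to 132 CPM in laminin and 13.9 to 20.5 CPM in collagen with no overlap, while the groups of the other 6 genes overlap.

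Igfbp5 is a known product of mesenchymal cells, so fibroblast and stellate markers are given beside it. Of 15 such markers, 8 had a mean of at least 1 CPM, and the list summed to 661 to 824 CPM in laminin and 652 to 808 CPM in collagen. Fbln2, an elastic fibre protein, made up most of that sum. Lrat and Thy1 had 0 counts, and Acta2 reached at most 0.230 CPM in laminin and 0.486 CPM in collagen. Pdgfrb, a receptor of pericytes and stellate cells, was at 1.26 to 6.07 CPM in laminin and 0.423 to 0.801 CPM in collagen. Dcn, a fibroblast proteoglycan, was at 2.30 to 5.24 CPM in laminin and 6.35 to 9.63 CPM in collagen, the opposite order. Both groups were grown from the NMC line, and these values do not establish that mesenchymal cells were present. Any link of the markers to the Igfbp5 difference was not tested. In bulk RNA, a different number of cells that make a transcript and a different amount per cell cannot be told apart.

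Igfbp5 lies on the minus strand of chromosome 1 (GRCm38, 72857932 to 72874884), end to end with Igfbp2 on the plus strand (72824503 to 72852474), with 5.5 kb between them. Igfbp2, a binding protein of fetal tissues, was too low to compare with its neighbour. It had 1, 0, 0, 1 and 0 counts in laminin replicates 1 to 5, against 0, 1, 1, 2 and 0 counts in collagen. All were under 3, the expected count still possible where 0 is observed. Promoters are shown for Igfbp5 and for the 3 binding proteins with a higher mean level per kb in both matrices. Each is the stretch of 250 bases before the RefSeq start (GRCm38.p6), 5′ to 3′ on the gene's strand. Capitals mark every match on either strand. The letters searched were TATAAA for the TATA box and TATTTAA for a TATA-like run. They were GGGCGG for the GC box and CCAAT for the CCAAT box. For AP-1 they were TGANTCA, for FOXO sites GTAAACA and for the E-box CANNTG. No match overlapped another in these 4 stretches.
Igfbp5, chr1:72874866-72875115, minus: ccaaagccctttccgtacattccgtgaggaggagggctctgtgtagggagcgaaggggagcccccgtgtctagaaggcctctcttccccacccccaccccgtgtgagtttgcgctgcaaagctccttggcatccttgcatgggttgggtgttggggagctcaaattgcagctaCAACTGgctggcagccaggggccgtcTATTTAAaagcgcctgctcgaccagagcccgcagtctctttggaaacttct
Igfbp7, chr5:77408046-77408295, minus: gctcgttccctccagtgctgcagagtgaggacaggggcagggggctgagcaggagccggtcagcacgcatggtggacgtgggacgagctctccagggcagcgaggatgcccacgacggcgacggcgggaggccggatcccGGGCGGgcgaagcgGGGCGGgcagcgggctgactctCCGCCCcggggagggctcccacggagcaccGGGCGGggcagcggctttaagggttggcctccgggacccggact
Igfbp4, chr11:99040994-99041243, plus: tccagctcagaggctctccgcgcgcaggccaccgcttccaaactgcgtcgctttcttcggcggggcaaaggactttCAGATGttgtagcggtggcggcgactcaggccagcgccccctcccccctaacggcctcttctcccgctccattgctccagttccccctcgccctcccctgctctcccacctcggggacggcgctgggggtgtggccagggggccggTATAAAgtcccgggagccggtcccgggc
Igfbp3, chr11:7213924-7214173, minus: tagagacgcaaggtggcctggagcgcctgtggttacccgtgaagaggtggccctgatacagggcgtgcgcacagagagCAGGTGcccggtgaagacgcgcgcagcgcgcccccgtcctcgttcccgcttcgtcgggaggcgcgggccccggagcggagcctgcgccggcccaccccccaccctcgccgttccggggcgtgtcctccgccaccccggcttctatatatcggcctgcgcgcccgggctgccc

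The Igfbp5 stretch held TATTTAA from base -51 to -45 and an E-box from -77 to -72, and no GC box. TATTTAA occurs in 4.18% of the 32851 promoters in the RefSeq table, an E-box in 66.2% and a GC box in 32.7%. Its GC content was 58.8% with 10 CpG, against 74.0% and 26 CpG for Igfbp7, 69.2% and 22 for Igfbp4 and 73.2% and 32 for Igfbp3. The median over all promoters was 52.4% and 6 CpG. Igfbp7 carried GC boxes only, 4 of them, and Igfbp4 the letters TATAAA from -28 to -23, which 12.4% of promoters hold. Besides TATAAA and TATTTAA no TATA-like letters were searched, and the run TATATAT in the Igfbp3 stretch is therefore not marked. FOXO letters were found in the stretch of none of the 10 genes, and 3.17% of all promoters hold them. These matches are letters in a window and say nothing of binding.

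The other binding proteins fell into 2 abundant genes, Igfbp7 and Igfbp4, an intermediate one, Igfbp3, and a rare one, Igfbp6. Igfbp7 was at 324, 235, 294, 388 and 340 CPM in laminin and at 210, 277, 349, 486 and 382 CPM in collagen. The 2 groups overlapped throughout, with the highest and the lowest library both in collagen, and the log2 difference was -0.11 (SE 0.20). Exons of Polr2b overlap Igfbp7 on the opposite strand, and how strand was treated in counting is not given, so its values are uncertain to that extent.

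Igfbp4, which inhibits IGF action until it is cleaved by the protease pappalysin, was at 158, 126, 198, 392.4 and 194 CPM in laminin and 193, 195, 338, 268 and 296 CPM in collagen. Laminin replicate 4 was the highest of the 10 libraries, and laminin replicates 1 and 2 the lowest. The log2 difference was -0.27 (SE 0.27), and -0.63 without laminin replicate 4. Igfbp3, the main carrier of IGFs in blood, was at 32.3, 62.8, 45.0, 76.0 and 51.8 CPM in laminin and 45.3, 54.0, 36.7, 57.1 and 49.8 CPM in collagen. The collagen libraries lay inside the laminin range, and the log2 difference was 0.14 (SE 0.20). Igfbp6, which prefers IGF2, had 6 to 17 counts in laminin and 11 to 27 in collagen, or 2.13 ± 0.874 and 2.54 ± 0.482 CPM (SD, n = 5 each). Its groups overlapped, with a log2 difference of -0.29 (SE 0.30).

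Levels were set between genes only after division by the length of the longest annotated transcript, in CPM per kb. Igfbp7 led at 264 ± 47.3 in laminin and 284 ± 87.4 in collagen, followed by Igfbp4 at 55.8 ± 27.2 and 67.3 ± 16.6, Igf2r at 35.05 ± 5.58 and 27.1 ± 9.83, and Igfbp3 at 22.1 ± 6.90 and 20.1 ± 3.31 (SD, n = 5 each). Igfbp7 exceeded Igfbp4, and Igfbp4 exceeded Igf2r, in 10 of 10 libraries, although the ranges of Igfbp4 and Igf2r overlapped in laminin. Igf2r exceeded Igfbp3 in 9 of 10. Igfbp7 stood between the 98.2 and 99.4 percentiles of all genes with a count, on the same scale. Igfbp5 changed its place in the order. It was at 12.3 ± 6.19 CPM per kb in laminin and 3.01 ± 0.410 in collagen, above Igf1r in 4 of 5 laminin libraries and in 0 of 5 collagen libraries.

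Of the summed level of the 6 binding proteins per kb, Igfbp7 made up 74.5 ± 4.97% in laminin and 74.7 ± 3.79% in collagen. Igfbp4 made up 15.1 ± 3.85% and 18.2 ± 3.18%, and Igfbp3 6.34 ± 2.12% and 5.61 ± 1.65% (SD, n = 5 each, laminin first). The share of Igfbp5 was 1.90 to 6.49% in laminin and 0.552 to 1.27% in collagen. Shares set transcripts of unlike length side by side, 6.01 kb for Igfbp5 and 1.20 kb for Igfbp7. In collagen replicates 1 to 5 the Igfbp5 share was 1.27, 0.998, 0.852, 0.604 and 0.552%. The length slopes of these libraries were 0.18, 0.15, -0.06, -0.37 and -0.19. The part of the length trend in the shares was not tested. The whole sum was 356 ± 75.5 CPM per kb in laminin and 377 ± 99.4 in collagen, which differed by less than the spread.

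**Figure D2:**
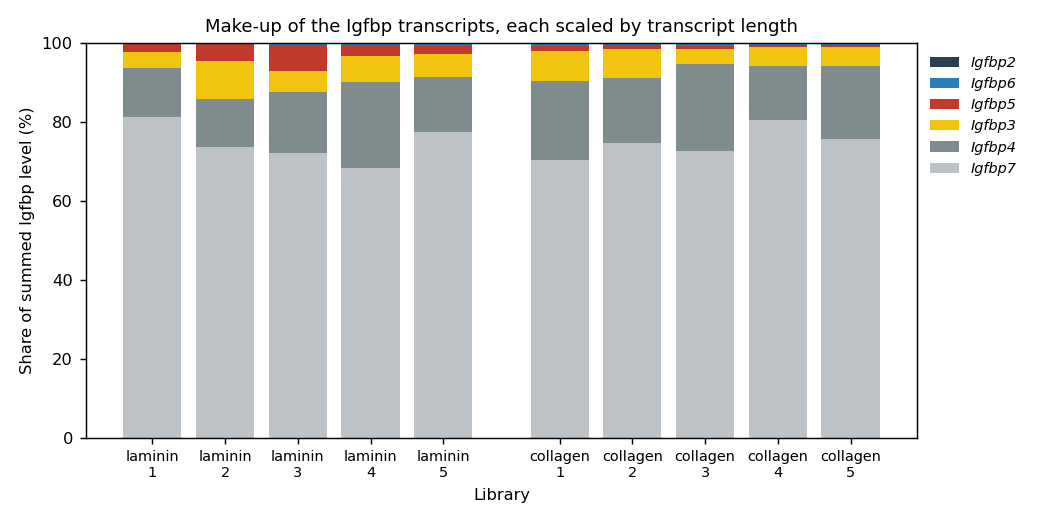
Stacked bars of the share (%) of each binding protein in the summed Igfbp level per library, after division by transcript length, 5 laminin libraries left of 5 collagen libraries. Igfbp7 fills 68.3 to 81.3% in laminin and 70.2 to 80.3% in collagen, and the red Igfbp5 band is wider in each laminin bar (1.90 to 6.49%) than in any collagen bar (at most 1.27%).

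Both receptors were expressed in every library. Igf2r was at 317, 290, 342, 368 and 240 CPM in laminin and 325, 336, 211, 133 and 199 CPM in collagen, with a log2 difference of 0.37 (SE 0.22). Collagen replicates 3, 4 and 5 lay below all laminin libraries, and collagen replicates 1 and 2 within them. Igf1r was at 101, 87.8, 108, 117 and 79.2 CPM in laminin and 114, 116, 91.1, 75.6 and 84.3 CPM in collagen. The groups overlapped throughout, at a log2 difference of 0.04 (SE 0.15).

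Per kb, Igf2r exceeded Igf1r by a ratio of 4.02, 4.24, 4.05, 4.05 and 3.88 in laminin and 3.65, 3.72, 2.97, 2.26 and 3.03 in collagen. All 5 laminin ratios lay above all 5 collagen ratios. They were also closer to each other, at 4.05 ± 0.126 in laminin and 3.13 ± 0.598 in collagen (SD, n = 5 each). The ratio comes from the contrast that chose the genes and is a description. Both transcripts are long, 8.89 kb for Igf2r and 11.41 kb for Igf1r, and the 3 lowest ratios came from the collagen libraries with a negative length slope. Laminin replicates 1 and 5, also with a negative slope (-0.01 and -0.12), had ratios of 4.02 and 3.88. The part of the length trend in the ratio was not tested. With that trend removed the log2 difference was 0.18 (SE 0.11) for Igf2r and -0.23 (SE 0.10) for Igf1r. Without the letter B libraries, where the collagen group was replicates 4 and 5 alone, it was 0.88 (SE 0.20) for Igf2r.

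The ligands were almost absent. Igf1 had 0, 2, 1, 1 and 4 counts in laminin replicates 1 to 5 and 0 counts in all 5 collagen libraries. Over the pooled laminin counts this was 0.266 CPM (exact Poisson 95% interval 0.115 to 0.523). The interval of the 0 collagen counts on the same basis was 0 to 0.116 CPM. The 2 intervals cover counting error only, and they overlap at their ends. Laminin replicate 5 gave 4 of the 8 counts, and a single library passed 3 counts, so no ratio is given. Igf2, the fetal ligand, had 1 count in laminin replicate 3 and 1 count in collagen replicate 3. The maintenance medium of the line held fetal bovine serum, and RNA does not measure IGF protein from serum.

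Differences between libraries of the same matrix did not enter the choice of the genes and were tested. Within collagen, letter D against letter B (2 and 3 libraries) called 2 of 7 members in edgeR's quasi-likelihood test with 4 letter groups, against 15.2% of all genes (6.12% higher and 9.11% lower in D). Likeness of the collagen libraries did not fully follow the letter, by chi-square per degree of freedom between counts (larger is less alike). Replicate 3 (letter B) was at 6.16 with replicate 5 and 18.6 with replicate 4 (both letter D). It was at 20.3 and 18.4 with replicates 1 and 2 of its own letter, which were at 3.24 with each other. The differences are therefore not read as an effect of the letter. Igf2r fell to 133 and 199 CPM in letter D, against 325, 336 and 211 CPM in letter B, a log2 change of -0.79 (SE 0.24, adjusted p = 0.0475). Igfbp7 rose to 486 and 382 CPM in letter D, against 210, 277 and 349 CPM in letter B, a log2 change of 0.66 (SE 0.20, adjusted p = 0.0485). Both pass narrowly. Igf2r was no longer called in edgeR without collagen replicate 1 (adjusted p = 0.170), 2 (0.148), 4 (0.451) or 5 (0.0551) or laminin replicate 2 (0.0670) or 3 (0.0574). The same held for Igfbp7 without collagen replicate 1 (adjusted p = 0.183), 2 (0.134), 4 (0.466) or 5 (0.0638) or laminin replicate 2 (0.0602) or 3 (0.0594). With scaling to library totals alone, the adjusted p was 0.0507 for Igf2r and 0.0516 for Igfbp7 in edgeR, and with DESeq2 size factors 0.0526 for Igfbp7, so these calls were lost as well. Removal of the length and GC trend left -0.30 for Igf2r (adjusted p = 0.235) and 0.03 for Igfbp7 (adjusted p = 0.947). Igf1r gave -0.40 (SE 0.18, adjusted p = 0.133) in edgeR, and passed at -0.52 without collagen replicate 3 (adjusted p = 0.0466). After the length and GC offset its sign turned, to 0.20. Over all genes the D against B count was 0 without collagen replicate 1, 2 or 4.

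Igfbp5 gave -0.25 (SE 0.44, adjusted p = 0.699) between letters D and B and -0.27 (SE 0.39, adjusted p = 1.00) between letters F and E within laminin, both in edgeR. Its letter means were 65.6 CPM in F and 79.0 in E, and 16.1 in D and 19.4 in B. Because no laminin library overlapped a collagen library, each laminin letter mean had to lie above each collagen letter mean. Nothing further is read from that order. The F minus E difference of Igfbp5 was 0.34 without laminin replicate 3 and 0.08 without laminin replicate 5, and the D minus B difference 0.08 after the length and GC offset, so neither direction is stable. Igfbp4 gave 0.86 (SE 0.30) and Igfbp6 0.78 (SE 0.43) for letter F minus letter E, neither called, and Igfbp4 gave 0.26 without laminin replicate 4. In that comparison 0 of 7 members and 0 of all genes (0%) were called in edgeR, while 444 genes had an unadjusted p under 0.05, and DESeq2 called 1.

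**Figure D3:**
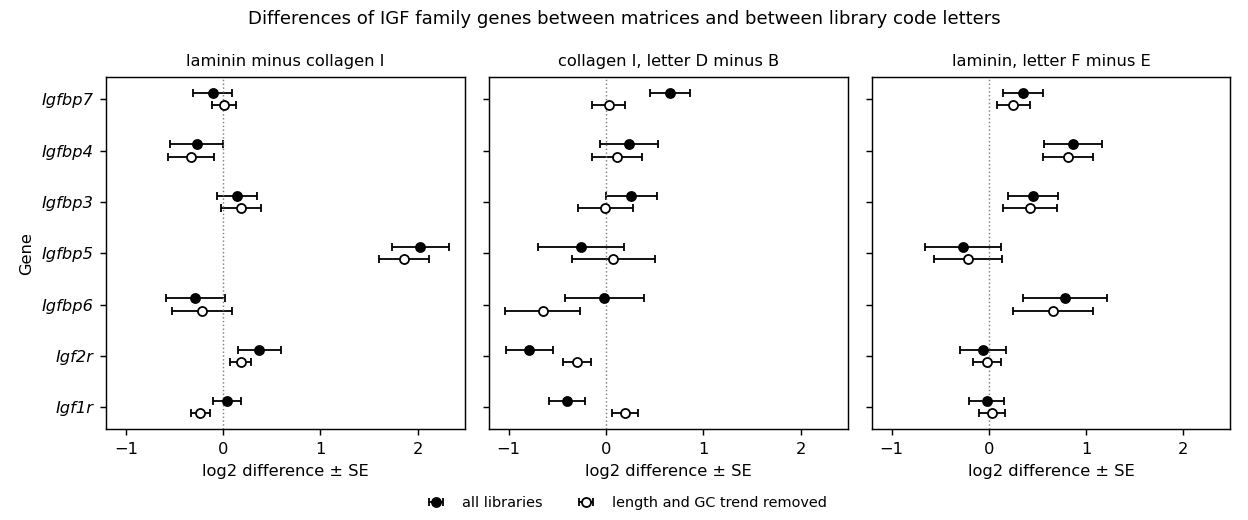
Log2 differences ± SE of 7 IGF genes for laminin minus collagen I (left), and between library code letters within collagen I (middle) and within laminin (right). Filled points use all libraries, and open points come from the fit with the length and GC trend removed. Igfbp5 stands at 2.03 and 1.86 in the left panel, while the letter D minus B values of Igf2r and Igfbp7 lie nearer 0 as open points (-0.30 and 0.03).

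**Figure D4:**
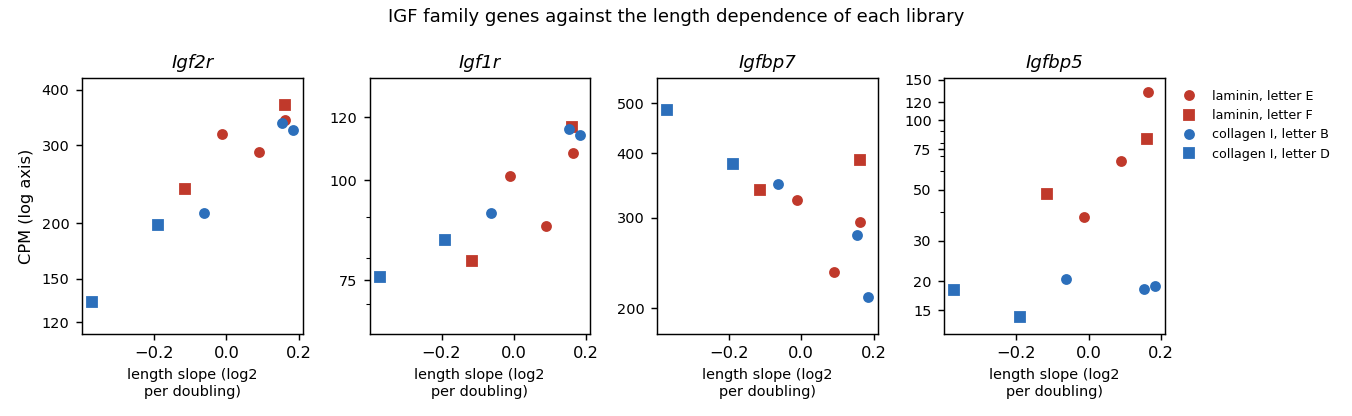
CPM (log axis) of 4 IGF genes in each library against that library's length slope (log2 units per doubling of transcript length), with matrix by colour and code letter by symbol. Igf2r and Igf1r are lowest in collagen replicate 4 (133 and 75.6 CPM, slope -0.37), where Igfbp7 is highest (486 CPM). Igfbp5 lies at 18.3 to 20.5 CPM in collagen libraries with slopes from -0.37 to 0.18, apart from 13.9 CPM in collagen replicate 5.

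The plot of levels against the length slope shows the receptors, with long transcripts, and Igfbp7, at 1.20 kb, on opposite sides of their group means in 5 of 5 collagen libraries. In laminin this was so for replicates 3 and 5 only. Laminin replicates 1 and 4 lay above the group mean for Igf2r, Igf1r and Igfbp7 alike, and laminin replicate 2 below it. After group means were subtracted, Igfbp5, at 6.01 kb, correlated with the slope at 0.45 over the 10 libraries. The same correlation was 0.96 for Igf2r, 0.91 for Igf1r and -0.76 for Igfbp7. Among collagen libraries the largest Igfbp5 value was 1.47 times its smallest. Among laminin libraries that ratio was 3.48, and the 2 libraries with the highest slopes (0.16 each, replicates 3 and 4) had the most Igfbp5. The spread of its log2 level within laminin (SD 0.70) was above that of 97.5% of all tested genes, and within collagen (SD 0.21) above that of 34.9%. A wide spread within laminin was not particular to Igfbp5. Igfbp4, Igfbp6 and Igfbp3 lay above 95.9%, 94.1% and 90.8% of tested genes there, and Igfbp7 above 68.3%. Within collagen the values were 70.0%, 42.1%, 45.3% and 84.0% in the same order. The part of the slope in the spread of Igfbp5 was not tested.

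Genes that varied with Igfbp5 inside the groups were ranked by Pearson correlation of log2 CPM over 10 libraries after group means were subtracted, among 9896 genes. The 5 with the highest values were Ttpal (0.95), Zfp84 (0.94), Pik3r3 (0.93), Slc43a2 (0.93) and Slc35e3 (0.92), given as a description over libraries that share a length trend. The laminin libraries weigh most in these values, since the SD of Igfbp5 was 0.70 within laminin and 0.21 within collagen. Pik3r3, a regulatory subunit of PI3K, was at 29.4, 46.6, 59.7, 53.3 and 33.4 CPM in laminin replicates 1 to 5, ranking the laminin libraries as Igfbp5 does. In collagen it was at 26.9, 29.8, 26.1, 25.6 and 24.5 CPM. Ttpal, which did not differ between matrices beyond its error (log2 0.02, SE 0.15), was at 22.9, 28.1, 37.7, 31.4 and 21.9 CPM in laminin. For the other members the closest gene was Dbn1 for Igfbp4 (0.99), Prex2 for Igf1r (0.99), Nktr for Igf2r (0.98), Shisa4 for Igfbp7 (0.97), Rsu1 for Igfbp3 (0.93) and Shc2 for Igfbp6 (0.88). Among the members themselves, Igf1r and Igf2r were closest (0.94), and Igfbp7 and Igf2r the most opposed (-0.69). Within groups, the length slope of the libraries correlated with Igf1r at 0.91, with Igf2r at 0.96 and with Igfbp7 at -0.76. The part of the length trend in the correlations between genes was not tested.

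Of 94 other genes of the pathway, listed with earlier results of these data known, 76 were tested and 0 were called between the matrices in edgeR. At an unadjusted p under 0.05 there were 10 (13.2%, against 11.7% of all genes), and DESeq2 called 2. The median log2 difference was 0.09, against 0.01 over all genes. Outside the cell, Igfbp1, Ins1, Ins2 and Igfbpl1 had 0 counts in every library, which allows at most 0.678 CPM in any single library. Over the pooled counts of a group the limit was 0.0996 CPM in laminin and 0.0941 CPM in collagen. Of 6 tested genes here 0 were called. Adamts1, a secreted protease that cleaves proteoglycans, was at 83.0 ± 50.7 CPM in laminin and 38.7 ± 17.1 CPM in collagen (SD, n = 5 each). Stc1, whose product inhibits pappalysin, was at 11.0 ± 4.82 and 19.2 ± 6.98 CPM. Pappa itself had 0 counts in laminin and 4 in collagen.

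Among 14 tested insulin receptor and adaptor genes, 0 were called and 8 were above 0. Grb14, an adaptor that inhibits the insulin receptor, gave 0.42 (SE 0.20) and Cav1, the caveolar coat protein, -0.40 (SE 0.23). In PI3K, Akt and mTOR signalling 0 of 28 were called, and 23 were above 0, where 51.7% of all genes were. The letter D libraries were low for this list, with a median D minus B difference of -0.29 within collagen, against 0.02 over all genes, and their part in the count above 0 was not tested. Pik3r3 gave the smallest p (log2 0.74, SE 0.18, adjusted p = 0.137 in edgeR). Akt2, a kinase of insulin signalling, was named for its low p in this contrast (adjusted p = 0.332 in edgeR). It was at 150 ± 4.401 CPM in laminin and 127 ± 11.0 CPM in collagen (SD, n = 5 each). Its groups did not overlap, as held for 3.24% of all genes, and nothing is read from that. Deptor, an inhibitor of mTOR, gave 0.59 (SE 0.23, adjusted p = 0.334 in edgeR). It was named for its letter D minus B difference within collagen, -0.79 (SE 0.20, adjusted p = 0.0317 in edgeR). It was at 93.7, 98.3, 60.0, 42.7 and 52.6 CPM in collagen replicates 1 to 5, against 82.3 to 124 CPM in laminin.

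Of 17 tested FOXO factors and targets, 0 were called and 12 were above 0, where 51.7% of all genes were. The median was 0.25, against 0.01 over all genes, and Akt activity was not measured. The median D minus B difference of these 17 genes within collagen was -0.28, and its part in the count above 0 was not tested. Bcl6, a transcriptional repressor, was at 39.0 ± 5.53 CPM in laminin and 24.3 ± 4.99 CPM in collagen (log2 0.68, SE 0.16, adjusted p = 0.109 in edgeR), and Foxo1 gave 0.45 (SE 0.16). Bnip3, a mitophagy receptor, gave -0.41 (SE 0.19). Of the IGF2 mRNA-binding proteins, Igf2bp2 was at 113 ± 14.5 CPM in laminin and 143 ± 28.5 CPM in collagen. Igf2bp1 was at 31.5, 5.08, 8.30, 9.13 and 3.22 CPM in laminin and 11.3, 17.5, 17.4, 17.7 and 20.03 CPM in collagen, and 4 laminin libraries lay below all collagen libraries with replicate 1 above them. Among 9 tested proteins reported to bind IGFBPs outside the cell 0 were called. Fn1, fibronectin, was the most abundant at 1752 ± 612 CPM in laminin and 1305 ± 282 CPM in collagen, and Lrp1, an endocytic receptor, gave 0.52 (SE 0.19). Within collagen, 14 of the 76 pathway genes (18.4%) differed between letters D and B, in total near the 15.2% of all genes. By direction 12 were lower and 2 higher in D, where 9.11% of all genes were lower and 6.12% higher. With the length and GC offset 5 of the 76 were called. Of the 14 called without the offset, Rictor, a subunit of mTORC2, gave -1.39 (SE 0.31, adjusted p = 0.0291 in edgeR).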

How the data were processed

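Poly(A) RNA of 10 spheroid samples was sequenced from stranded mRNA libraries made from 30 ng of RNA, per the labels' protocols. The deposited table holds raw counts, whole numbers for each gene symbol and library, without normalization. GRCm38 (mm10) and DESeq2 are named in the submitters' processing notes. For aligner, counter, strand and annotation, nothing is given in the sources used here.

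Each column was matched to a sample by its library code, and matrix by the sample title. Genes were kept with filterByExpr (10789), scaled with TMM and compared with edgeR 4.0.16 in R 4.3.3 (quasi-likelihood F test, two-sided, matrix as the only term), with Benjamini-Hochberg adjustment over all genes tested and a threshold of 0.05. Letters were compared in a fit of 4 letter groups (11113 genes). SE is the log2 difference divided by the square root of F. CPM are TMM-scaled. Log2 CPM used a pseudocount of 2. Whether the samples came from separate cultures is not stated, and p-values then cover only the spread among these samples, which may be technical. Over libraries of the same group, counts differed by more than sampling noise in every pair.

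Positions and lengths came from GENCODE M21 (GRCm38), matched by symbol for 18338 genes, and promoters from RefSeq (GRCm38.p6), matched for all 10 members. A count of 3 of a library, the limit of a 0, were 0.369 to 0.678 CPM. The members and lists were chosen with earlier results of these data known. Named genes were the members, the called, most abundant and lowest-p genes of each list, and the genes closest in pattern to each member with a mean of at least 5 CPM. Igfbp1, Ins1, Ins2, Igfbpl1 and Pappa were named after their values were seen. Alternatives were DESeq2 1.42.0, its size factors, library totals, no filter, 1 CPM in 5 libraries, a replicate block, a length and GC offset (splines of 5 degrees of freedom), and leaving out each library or letter. The steps were tested on simulated counts.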

Additional observations from a re-analysis of the deposited data

Results flagged for a closer look

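In 120 groups of 5 libraries over the genes and ratios named above, 3 had 1 library standing apart, and chance alone would give about 5% of groups, or 6. None was an IGF binding protein, ligand or receptor. Adamts1 was at 173 CPM in laminin replicate 4, against 51.8 to 70.3 CPM in the other laminin libraries. Cav1 was at 172 CPM in laminin replicate 1, against 70.1 to 88.6 CPM. Igf2bp1 was at 11.3 CPM in collagen replicate 1, with collagen replicates 2 to 5 between 17.4 and 20.03 CPM.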

How the results depend on the processing

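Between the matrices, 16 genes were called, 15 higher and 1 lower. DESeq2 called 214, edgeR without a filter 29 and with the length and GC offset 104, while without the letter B, D, E or F libraries it called 2083, 5, 1 and 5, and 0 to 64 without single libraries. The count of members called, 1, was 2 without the letter B libraries (Igf2r with Igfbp5), 0 without D, E or F, and 0 to 1 without single libraries. Pathway genes called, 0, were 2 with DESeq2, 1 with the offset, 18 without letter B and 0 to 2 without single libraries. Letters D and B differed in 1692 genes, 438 with the offset and 0 to 3634 without single libraries, and letters F and E in 0, with 1 in DESeq2 and 0 to 27 without single libraries. Where a letter was left with 1 library, it was assumed to vary like the others. The cause of these shifts was not tested. With the replicate number as a block, 0 genes and 0 members were called. Same-numbered libraries did not pair, since their deviations correlated at -0.33 to 0.48, and 0 of 5 laminin libraries correlated best with their own number.

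The log2 difference of Igfbp5 was 1.68 to 2.19 over 21 alternatives, with adjusted p from 1.2e-08 to 0.123. Since its groups did not overlap, an unchanged sign says little. Igf2r kept its sign in 21 (0.10 to 0.88), Igfbp4 and Igfbp6 in 20, Igfbp3 in 18, Igfbp7 in 17 and Igf1r in 15. Of the tested letter differences, several that were not called over all libraries turned sign. With the offset, D minus B was -0.0071 for Igfbp3, 0.076 for Igfbp5 and 0.20 for Igf1r, and F minus E was 0.030 for Igf1r, which was 0.012 with library totals. Without single libraries, D minus B of Igfbp6 was -0.16 to 0.20, and F minus E was -0.73 to 0.34 for Igfbp5, -0.41 to 0.22 for Igf2r and -0.33 to 0.23 for Igf1r. Depth limits Igfbp6, Igfbp2, Igf1 and Igf2.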
